A study of Mus musculus with 8 samples.

Results

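Genes of glucose use were examined in ribosome-bound RNA of mouse midbrain dopaminergic neurons: the uptake and breakdown of glucose, the fate of pyruvate and the citric acid cycle. The set was a fixed list of 41 gene symbols, matched exactly to the symbols of the deposited count table, and all 41 were found among its 21761 genes. In the MPTP group, C57BL/6 mice had been injected intraperitoneally once a day for 5 days with MPTP-HCl, at 30 mg/kg reckoned as free base, and the saline mice had been injected with saline on the same schedule. In both groups RNA was taken 4 days after the last injection, and each group had 4 libraries. The RNA had been purified by translating ribosome affinity purification (TRAP), in which tagged ribosomes are pulled down from 1 cell type together with the messenger RNA they carry. The protocol covers substantia nigra and ventral tegmental neurons pooled or kept apart and does not say which applies here. The name given to the deposited counts marks them as dopaminergic neurons of SN, presumably the substantia nigra. Neither the age of the mice nor the promoter that drives the ribosome tag is given in the sources used here. The libraries are numbered, but nothing says that they came from separate animals, so every p-value measures only the spread between these 8 samples, and that spread may be technical.

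MPTP is turned in the brain into a toxin that dopaminergic neurons take up and that blocks complex I of the mitochondrial respiratory chain. Glycolysis splits glucose into pyruvate in the cytosol, and pyruvate then takes 1 of several routes. Lactate dehydrogenase interconverts pyruvate and lactate and recycles the NADH that glycolysis makes, while the pyruvate dehydrogenase complex turns pyruvate into acetyl-CoA inside mitochondria. The citric acid cycle oxidises acetyl-CoA and hands its electrons, as NADH, mostly to complex I. Neurons depend strongly on this oxidative route, and shuttles with malate and aspartate carry the electrons of cytosolic NADH across the mitochondrial membrane.

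Library totals ranged from 66450856 to 78892061 counts in MPTP and from 54192354 to 69333470 counts in saline. Values below are CPM, counts scaled to a common library size in the usual unit after correction by trimmed means (TMM). The dopaminergic identity of the RNA was plain in every library: the summed level of 10 dopaminergic markers, among them the dopamine synthesis enzyme Th and the dopamine transporter Slc6a3, was 8693 to 10259 CPM in MPTP and 7747 to 13058 CPM in saline. The third saline library (saline 3) stood apart from the other saline libraries. It was the one at 7747 CPM, where the other saline libraries held 12054 to 13058 CPM. Its sum over 10 oligodendrocyte markers was 1626 CPM, against 1106 to 1269 CPM in MPTP and 765 to 932 CPM in saline 1, 2 and 4. Its sum over 10 astrocyte markers was 341 CPM, against 299 to 327 CPM in MPTP and 258 to 280 CPM in saline 1, 2 and 4. On the first principal component of all genes (20.5% of the variance) saline 3 lay at -24.1, beyond the MPTP libraries at -23 to -15.3 and far from the other saline libraries at 26.9 to 38.9. Each main result is therefore given with and without it.

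No gene of the set passed the test. With edgeR's quasi-likelihood test and Benjamini-Hochberg adjustment over all 15999 genes tested, 0 of 41 members were called higher in MPTP, where 0.075% of all genes were, and 0 were called lower, where 0.0313% of all genes were. The smallest adjusted p among members was 0.389. At an unadjusted p under 0.05 there were 5 members lower and 1 higher, against 4.5% and 4.28% of all genes tested. DESeq2 and limma voom called no member either. For 38 of the 41 members the 95% interval of the difference lay within 1.5-fold either way, as it did for 62.7% of all genes, the 3 exceptions being Slc2a1, Hk2 and Suclg2.

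The fitted differences leaned to one side, with 33 of 41 members (80.5%) below 0 in MPTP and a median log2 fold change of -0.12, against 49.9% below 0 and a median of 0.00056 over all genes. Well expressed genes as a whole leaned the same way: of 2133 genes with a mean of at least 100 CPM, 64.5% were below 0 with a median of -0.047, and of the 26 members at that level 24 were below 0 with a median of -0.14. No test was made of these counts, since the genes of one library share its purity and scaling. In every member the ranges of the groups overlapped in CPM, so 0 of 41 had all MPTP libraries below all saline libraries, against 2.14% of all genes, and 0 had all of them above, against 2.04%. In RNA pooled from many cells, fewer cells of a type and less RNA per cell cannot be told apart.

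Saline 3 added to the overlap without accounting for all of it. The 41 members together held 7879, 7826, 8121 and 7952 CPM in MPTP 1 to 4, and 9110, 9217, 7520 and 8779 CPM in saline 1 to 4. Saline 1, 2 and 4 were thus above every MPTP library, and saline 3 was below every one. It had the lowest saline value for 27 of the 41 members and lay within the MPTP range for 24, below it for 13 and above it for 4. Set against saline 1, 2 and 4 alone, all MPTP libraries were lower for 13 members, where this held for 7.61% of all genes, and higher for 1 member, Slc2a1, where it held for 7.22%. The 13 were Hk1, Pfkm, Aldoa, Tpi1, Gapdh, Pgk1, Eno1, Pkm, Ldhb, Pdhb, Pdk3, Cs and Mdh1, and in none of them was saline 3 above the MPTP range. The other 27 members overlapped without saline 3 as well.

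Without saline 3, edgeR called 2 members lower in MPTP, Ldhb and Mdh1, where 0.983% of the 16180 genes tested were called lower, and 0 members higher, where 0.853% were. The median log2 fold change of members was then -0.16, with 37 of 41 below 0. In that comparison the dopaminergic marker sum lay on the same side of 0 as most members and the glial sums on the other side. Without saline 3 the log2 difference was -0.43 for the dopaminergic sum, 0.21 for the astrocyte sum and 0.48 for the oligodendrocyte sum, each with an exact two-sided permutation p of 0.0571, the smallest that 4 against 3 libraries allow. With all 8 libraries they were -0.26, 0.12 and 0.25, with exact permutation p of 0.2, 0.229 and 0.314. Of single markers with all 8 libraries, 2 of 10 dopaminergic ones, 10 of 10 astrocyte ones and 9 of 10 oligodendrocyte ones were above 0, and none was called. The sums of 10 microglial markers (32.2 to 41 CPM in MPTP, 24.9 to 38 CPM in saline), of 10 endothelial markers (15.8 to 22.1 CPM in MPTP, 15.5 to 27.1 CPM in saline) and of 5 markers of GABAergic and glutamatergic neurons (263 to 397 CPM in MPTP, 263 to 449 CPM in saline) overlapped. The most counted microglial marker was P2ry12, at 19.4 to 22.6 CPM in MPTP and 17.5 to 24.9 CPM in saline. Of the 10 microglial markers 7 were above 0 with all libraries and 8 without saline 3. Without saline 3, 2 of them, Cd68 and C1qc, were called higher, where 0.853% of all genes were. Cd68 had 1.51 to 2.72 CPM in MPTP and 0.299 to 0.635 CPM in saline, higher without overlap, as 2.04% of all genes were. Tie1, an endothelial receptor, was the one marker with a library at 0. The part of purity in the members' values was not tested.

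**Figure D1:**
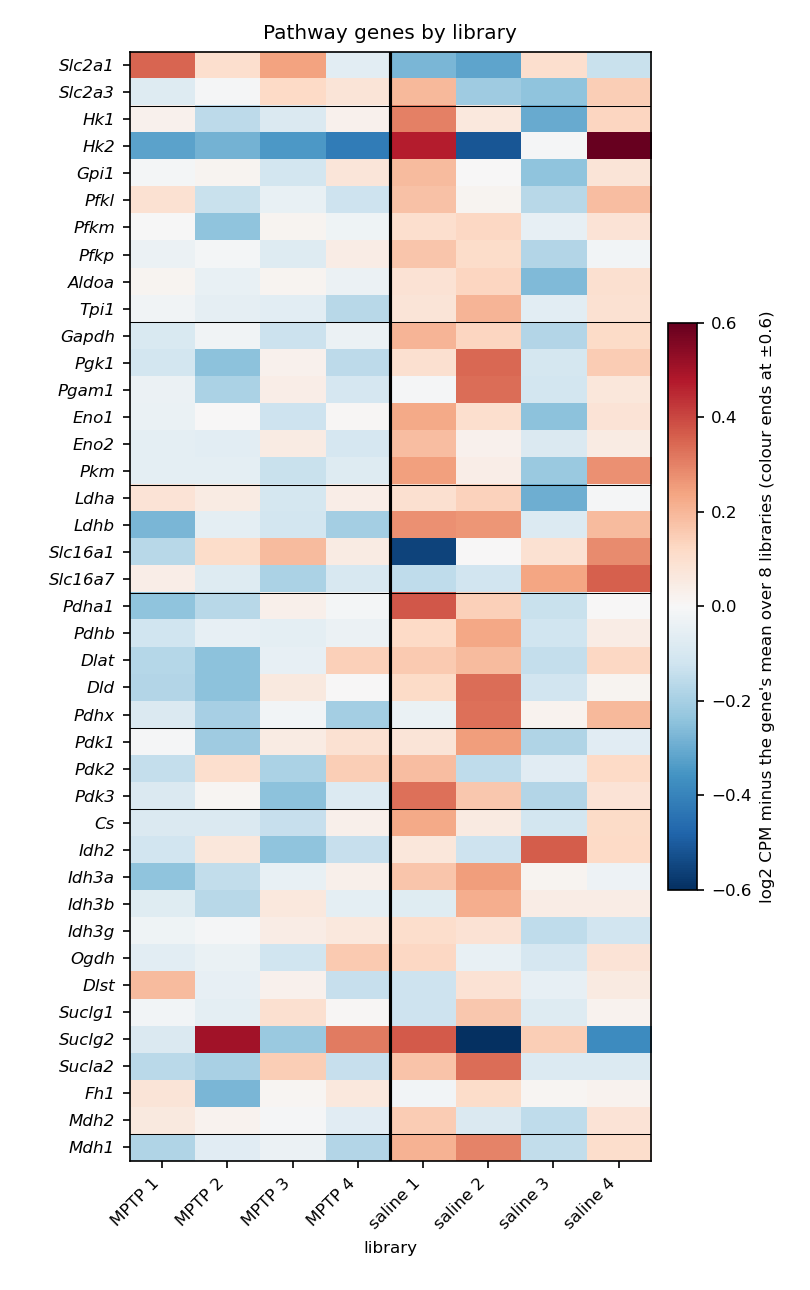
Level of each of the 41 genes (rows, in pathway order) in each of the 8 libraries (columns, MPTP left of the black line and saline right of it), as log2 CPM minus the gene's mean over the 8 libraries, with colours ending at 0.6 either way. Saline 1, 2 and 4 are mostly red, while saline 3 is mostly blue, as the MPTP libraries are, and has the lowest saline value for 27 of the 41 genes.

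Glucose enters brain cells through facilitative transporters. Slc2a1 encodes GLUT1, the transporter of the blood-brain barrier and of glia, and Slc2a3 encodes GLUT3, the main one of neurons. Slc2a1 had 21.4, 18, 19.9 and 16.1 CPM in MPTP and 13.9, 13.5, 18 and 15.3 CPM in saline. MPTP 1 and 3 were above every saline library, and MPTP 2 and 4 fell within the saline range, whose top was saline 3. Its log2 fold change was 0.32 (adjusted p = 0.508, SE 0.13), the highest of the 41 genes, and 0.41 without saline 3, where the adjusted p was 0.131. Slc2a3 had 84.5, 88.7, 96.7 and 94.1 CPM in MPTP and 102, 76.9, 75.4 and 98.6 CPM in saline, so the MPTP libraries lay inside the saline range. Its log2 fold change was 0.04 (adjusted p = 0.935, SE 0.11). Endothelial cells and glia are known GLUT1 cells. Of 10 endothelial markers, 3 were above 0 in MPTP with all libraries and 7 without saline 3, and none was called in either fit. The log2 difference of the endothelial sum was 0.00 with all libraries and 0.16 without saline 3 (exact permutation p = 0.457). Of 10 astrocyte markers 10, and of 10 oligodendrocyte markers 9, were above 0 with all libraries. The part of these cell types in the level of Slc2a1 was not tested.

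The upper part of glycolysis turns glucose into triose phosphates. All 8 genes of this part were below 0, with a median log2 fold change of -0.11 (-0.17 without saline 3), and none was called. Aldoa, the aldolase that splits fructose bisphosphate and the most counted gene of this part, had 811, 779, 813 and 784 CPM in MPTP and 851, 877, 668 and 857 CPM in saline. The MPTP libraries sat in the gap between saline 3 and the other saline libraries, and the log2 fold change was -0.03 (adjusted p = 0.951, SE 0.09). Tpi1, which interconverts the triose phosphates, had 323, 315, 313 and 292 CPM in MPTP and 345, 377, 313 and 349 CPM in saline. Only saline 3 reached down into the MPTP range of Tpi1, and the log2 fold change was -0.16 (adjusted p = 0.606, SE 0.08).

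Glucose is first phosphorylated by hexokinase, and the RNA of these cells was almost wholly that of Hk1, the isoform of neurons, with 113 ± 6.66 CPM in MPTP and 122 ± 20.3 CPM in saline (n = 4 a group, ± SD). Hk2, the isoform induced by hypoxia and prominent in muscle and tumours, had only 17 to 21 counts per library in MPTP and 15 to 45 in saline, and its log2 fold change of -0.86 had a 95% interval of -2.26 to 0.55. The 3 genes of phosphofructokinase, the main control point of glycolysis, were all expressed. Pfkm averaged 126 CPM in MPTP and 137 CPM in saline, Pfkp 86.6 CPM in MPTP and 89.4 CPM in saline, and Pfkl 39.9 CPM in MPTP and 43 CPM in saline. Their log2 fold changes were -0.13, -0.04 and -0.11, with adjusted p of 0.695 to 0.917. Gpi1, the isomerase between hexokinase and phosphofructokinase, had a log2 fold change of -0.02.

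The lower part of glycolysis yields ATP and pyruvate. All 6 of its genes were below 0, with log2 fold changes of -0.25 to -0.09, a median of -0.15 (-0.21 without saline 3) and no call. Pgk1, the phosphoglycerate kinase that makes the first ATP of the pathway, had 193, 176, 212 and 187 CPM in MPTP and 223, 265, 194 and 232 CPM in saline. Every MPTP library was below saline 1, 2 and 4, and only saline 3 fell among them. Its log2 fold change was -0.25 (adjusted p = 0.491, SE 0.10), and -0.32 without saline 3 (adjusted p = 0.072).

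Pkm, the pyruvate kinase of the last step, was tighter in MPTP, with 238, 238, 226 and 235 CPM, than in saline, with 294, 255, 213 and 300 CPM. Here too all MPTP libraries lay below saline 1, 2 and 4 and above saline 3. The log2 fold change was -0.18 (adjusted p = 0.629, SE 0.10), -0.27 without saline 3 and -0.11 without saline 4. Pgam1, the phosphoglycerate mutase, had 832, 747, 877 and 796 CPM in MPTP and 848, 1074, 790 and 895 CPM in saline, with a log2 fold change of -0.15 (adjusted p = 0.698, SE 0.10). The Pgam1 groups overlapped. Without saline 2, the highest library, the log2 fold change was -0.05, and without saline 3 it was -0.21. Gapdh, which makes NADH, had 199 ± 6.72 CPM in MPTP and 220 ± 24.1 CPM in saline (n = 4 a group, ± SD), a log2 fold change of -0.14. Eno2, the enolase of neurons, had 619 CPM in MPTP and 659 CPM in saline, and Eno1, the enolase of most tissues, had 294 CPM in MPTP and 312 CPM in saline, with the same log2 fold change of -0.09 for both. Reads of Gapdh could have been split with near-identical copies: 81 other annotated genes share at least 100 bases with it at 95% identity or more. Eno1 has 3 such copies, and 1 of them, Eno1b, is counted on its own.

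**Figure D2:**
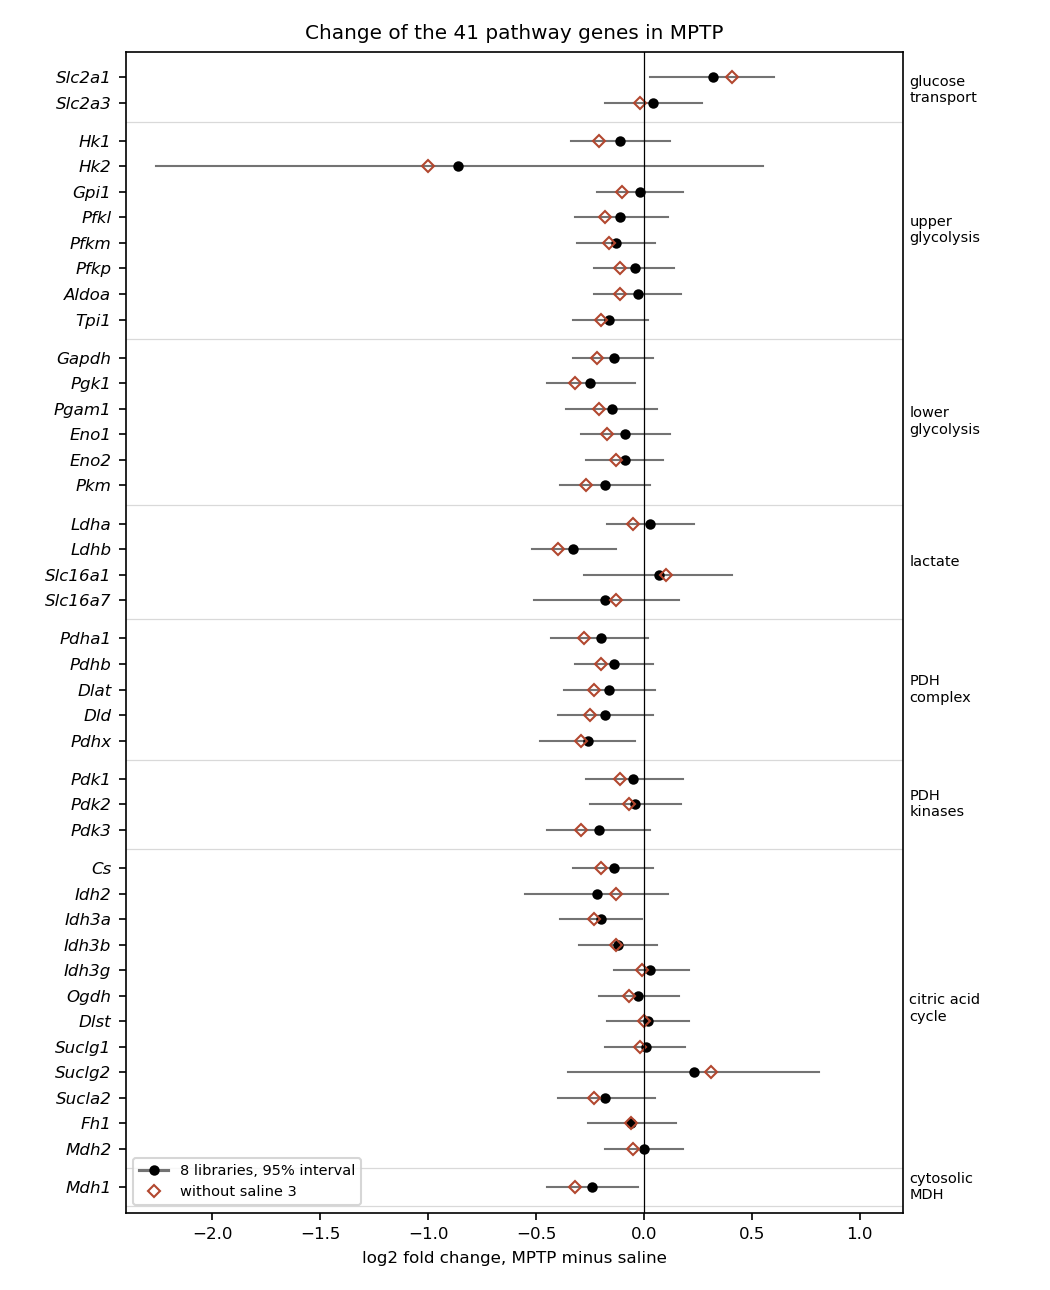
Log2 fold change, MPTP minus saline, of the 41 genes in pathway order, with black points and 95% intervals from all 8 libraries and open diamonds from the fit without saline 3. Most points lie left of 0 (33 of 41), none of the genes passed the test with 8 libraries, and most diamonds lie further left, with Ldhb at -0.40 and Mdh1 at -0.32.

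Lactate dehydrogenase gave the lowest p of the set. The enzyme is a tetramer of the subunits encoded by Ldha and Ldhb. The subunit of Ldha favours the making of lactate, whereas that of Ldhb, which prevails in neurons and heart, favours its use. Ldhb had 376, 437, 421 and 395 CPM in MPTP and 549, 546, 429 and 518 CPM in saline. All MPTP libraries were below saline 1, 2 and 4, and saline 3 lay just under the highest MPTP library. The log2 fold change was -0.33 (adjusted p = 0.389, SE 0.09), a ratio of 0.80, and 33 of 41 members shared its direction. Without saline 3 it was -0.40 (adjusted p = 0.020, SE 0.08), and over all alternatives tried its adjusted p ran from 0.020 to 0.791. Ldha had 131, 128, 115 and 127 CPM in MPTP and 132, 136, 101 and 123 CPM in saline, with a log2 fold change of 0.03 (adjusted p = 0.957, SE 0.10) and wide overlap.

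The ratio of the 2 subunit RNAs within each library does not depend on how libraries are scaled. Counts of Ldhb per count of Ldha were 2.86, 3.42, 3.67 and 3.11 in MPTP, against 4.18, 4.03, 4.24 and 4.21 in saline. All 4 MPTP libraries were below all 4 saline libraries, and saline 3 was the highest of the 8. The ratio averaged 3.27 ± 0.352 in MPTP and 4.16 ± 0.0962 in saline (n = 4 a group, ± SD), a log2 difference of -0.36. The exact two-sided permutation p was 0.0286, the smallest that 4 against 4 libraries allow, and 0.114 after Benjamini-Hochberg adjustment over the 8 ratios compared, which does not pass 0.05. Without saline 3 the log2 difference was -0.35 (exact permutation p = 0.0571, the smallest that 4 against 3 allow). Corrected for exon length, Ldhb RNA exceeded Ldha RNA 4.75-fold in MPTP and 6.05-fold in saline. Saline 3, with the highest astrocyte and oligodendrocyte sums of the 8 libraries, also had the highest ratio, at 4.24 against 4.21 in saline 4. The part of purity in the ratio was not tested.

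Of the other lactate genes, Slc16a1 encodes MCT1, the monocarboxylate transporter of endothelium and oligodendrocytes, and Slc16a7 encodes MCT2, the high-affinity one of neurons. Slc16a1 had 12.8 to 16.4 CPM in MPTP and 9.79 to 17.5 CPM in saline, a log2 fold change of 0.07. Slc16a7 had 8.26 to 9.69 CPM in MPTP and 8.49 to 12.1 CPM in saline, a log2 fold change of -0.18, and neither was called.

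Ldha and Ldhb lie on different chromosomes and have different upstream regions, shown here because the ratio of their RNAs did not overlap between the groups, although it did not pass after adjustment. Ldha spans chr7:46841475-46855627 on the plus strand and Ldhb chr6:142490249-142507957 on the minus strand (GENCODE vM21 on GRCm38). The sequences are the 250 bases before a RefSeq start site on GRCm38.p6, at chr7:46845554-46845803 for Ldha and chr6:142507958-142508207, read on the minus strand, for Ldhb. Ldha is a textbook target of the hypoxia-inducible factor HIF, and capitals mark matches on either strand to the core of its response element, ACGTG or GCGTG, where CACGTG counts on both strands with overlapping letters.

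Ldha: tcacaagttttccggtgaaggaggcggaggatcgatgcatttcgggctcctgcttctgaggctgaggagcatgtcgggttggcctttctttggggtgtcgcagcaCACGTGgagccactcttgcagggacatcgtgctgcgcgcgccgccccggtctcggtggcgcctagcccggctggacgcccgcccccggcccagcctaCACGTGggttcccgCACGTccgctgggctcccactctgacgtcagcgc

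Ldhb: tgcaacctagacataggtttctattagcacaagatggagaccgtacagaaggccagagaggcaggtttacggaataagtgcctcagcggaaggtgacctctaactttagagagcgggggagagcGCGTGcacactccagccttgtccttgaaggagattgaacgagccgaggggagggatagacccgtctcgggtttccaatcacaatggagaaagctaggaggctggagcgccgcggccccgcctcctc

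Near-identical copies are annotated elsewhere in the genome, 5 for Ldha and 1 for Ldhb, none of them in the count table. The Ldha region held 5 matches, 25 CpG sites and 67.2% G and C, and the Ldhb region held 1 match, 14 CpG sites and 56.4% G and C. The sequence before another RefSeq start of Ldha held 1 match. Of the 38 members with an entry in the RefSeq promoter table, 28 (73.7%) held a match before at least 1 start, against 11226 of 27025 genes (41.5%). Per start site the shares were 70.9% for members and 38.6% for all promoters. Both cores contain a CpG, and the shares were not matched for base composition or for expression, so they do not bear on control of the pathway. Slc2a3, Slc16a7 and Idh3a had no entry. A match describes these letters and does not show that the factor binds there.

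**Figure D3:**
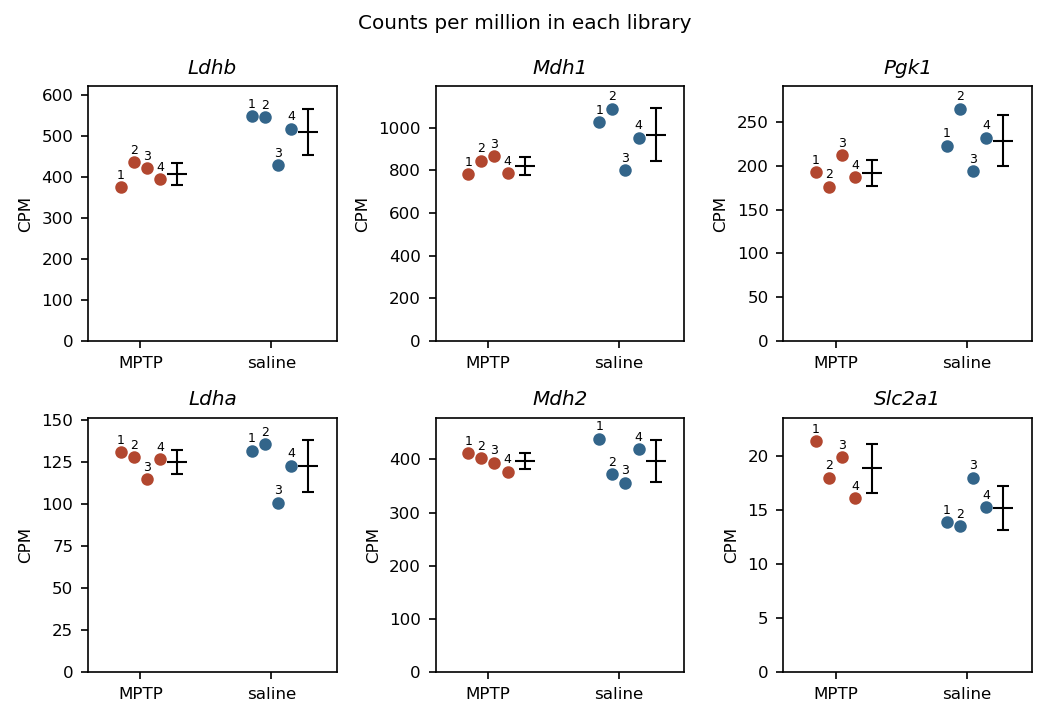
CPM (vertical axis, from 0) in each library, numbered by replicate, for 6 genes, with MPTP left and saline right and the mean with its SD beside the points. Ldhb, Mdh1 and Pgk1 are lower in all MPTP libraries than in saline 1, 2 and 4 but not than in saline 3, Ldha and Mdh2 overlap widely, and Slc2a1 is higher in all MPTP libraries than in saline 1, 2 and 4.

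The pyruvate dehydrogenase complex commits pyruvate to oxidation. All 5 of its genes were below 0, with log2 fold changes in the narrow range of -0.26 to -0.14 and a median of -0.18 (-0.25 without saline 3), and none was called. Summed, they held 499, 497, 559 and 570 CPM in MPTP and 641, 658, 518 and 586 CPM in saline, with saline 3 inside the MPTP range and the other saline libraries above it. Pdhx, the protein that anchors the dihydrolipoyl dehydrogenase to the core, had 35.2, 32.5, 36.9 and 32.4 CPM in MPTP and 36.3, 47, 37.9 and 42.7 CPM in saline. For Pdhx it was saline 1 and not saline 3 that fell inside the MPTP range, and the log2 fold change was -0.26 (adjusted p = 0.492, SE 0.10).

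Pdha1 encodes the catalytic alpha subunit, the one that the pyruvate dehydrogenase kinases phosphorylate. It had 115, 121, 139 and 135 CPM in MPTP and 176, 150, 124 and 136 CPM in saline, a log2 fold change of -0.20 (adjusted p = 0.606, SE 0.11), and of its RefSeq exon bases 21.2% are shared with Map3k15. Dlat, the acetyltransferase core, had 144, 137, 157 and 179 CPM in MPTP and 181, 185, 147 and 177 CPM in saline, a log2 fold change of -0.16 (adjusted p = 0.669, SE 0.10). The groups of both genes overlapped in more than saline 3, since saline 4 too was under the highest MPTP library. The log2 fold change of Pdha1 was -0.10 without saline 1 and -0.28 without saline 3. Dld, the dihydrolipoyl dehydrogenase that also serves 2-oxoglutarate dehydrogenase, had 89.3, 85, 105 and 101 CPM in MPTP and 109, 127, 93.1 and 102 CPM in saline. Its log2 fold change was -0.18 (adjusted p = 0.639, SE 0.10), -0.09 without saline 2 and -0.25 without saline 3. Pdhb, the catalytic beta subunit, had 120 ± 3.25 CPM in MPTP and 133 ± 13.5 CPM in saline (n = 4 a group, ± SD), a log2 fold change of -0.14.

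The kinases switch the complex off. Pdk2, the most counted of the 3 in the set, had 130, 154, 126 and 159 CPM in MPTP and 163, 129, 137 and 156 CPM in saline. Its range was nearly the same in both groups, with a log2 fold change of -0.04 (adjusted p = 0.938, SE 0.10). Pdk3 had 29.6, 31.6, 26.5 and 29.7 CPM in MPTP and 39.5, 35.1, 27.8 and 33.2 CPM in saline. Only saline 3 entered the MPTP range of Pdk3. The log2 fold change of Pdk3 was -0.21 (adjusted p = 0.623, SE 0.11), -0.12 without saline 1 and -0.29 without saline 3. Pdk1, a kinase induced by hypoxia, had 36.7 to 45.3 CPM in MPTP and 37.6 to 50.6 CPM in saline, a log2 fold change of -0.05. Pdk4, a further kinase gene outside the set, had 1.33 to 2.24 CPM in MPTP and 1.27 to 2.43 CPM in saline. The log2 fold change of Pdk4 was 0.12.

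The citric acid cycle oxidises the acetyl-CoA so made. Of its 12 genes 8 were below 0, with a median log2 fold change of -0.04 (-0.06 without saline 3) and no call, and the summed level was 1632, 1595, 1657 and 1670 CPM in MPTP and 1787, 1758, 1583 and 1719 CPM in saline. Saline 3 was again the lowest library and the other saline libraries the highest. Whether the cycle differed from glycolysis or from the dehydrogenase complex was not tested. Idh3a, the catalytic subunit of the NAD-dependent isocitrate dehydrogenase, had 101, 108, 116 and 122 CPM in MPTP and 134, 142, 121 and 117 CPM in saline. The highest MPTP library lay above both saline 3 and saline 4, and the log2 fold change was -0.20 (adjusted p = 0.533, SE 0.09). The regulatory subunits Idh3b and Idh3g had log2 fold changes of -0.12 and 0.03.

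Cs, citrate synthase, the entry step of the cycle, had 185, 185, 179 and 201 CPM in MPTP and 230, 204, 182 and 213 CPM in saline. All MPTP libraries of Cs were below saline 1, 2 and 4. The log2 fold change of Cs was -0.14 (adjusted p = 0.656, SE 0.09), -0.09 without saline 1 and -0.20 without saline 3. The genes of 2-oxoglutarate dehydrogenase, Ogdh and Dlst, had log2 fold changes of -0.03 and 0.02, and fumarase Fh1 had -0.06. Of succinate-CoA ligase, the shared subunit Suclg1 had a log2 fold change of 0.01 and the ATP-forming subunit Sucla2 one of -0.18. The GTP-forming subunit Suclg2 was near the bottom of the set, with 2.96 to 4.91 CPM in MPTP and 2.21 to 4.46 CPM in saline, and its log2 fold change of 0.23 had a 95% interval of -0.35 to 0.81. Idh2, the mitochondrial NADP-dependent isocitrate dehydrogenase, had 7.49 to 9.29 CPM in MPTP and 8.14 to 11.4 CPM in saline, a log2 fold change of -0.22.

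Malate dehydrogenase exists in a mitochondrial form, Mdh2, that closes the cycle, and a cytosolic form, Mdh1, that feeds the malate-aspartate shuttle. Mdh1 lies at chr11:21556787-21572367 on the minus strand and Mdh2 at chr5:135778480-135790398 on the plus strand (GENCODE vM21 on GRCm38), and neither has a near-identical copy. Mdh1 had 782, 845, 866 and 785 CPM in MPTP and 1024, 1089, 800 and 953 CPM in saline, with only saline 3 inside the MPTP range. Its log2 fold change was -0.24 (adjusted p = 0.506, SE 0.10), and -0.32 without saline 3 (adjusted p = 0.0487, SE 0.08), with an adjusted p of 0.0487 to 0.851 over the alternatives. Mdh2 had 412, 402, 394 and 377 CPM in MPTP and 439, 372, 356 and 419 CPM in saline. The MPTP libraries of Mdh2 lay within the saline range, and its means were 396 CPM in MPTP and 397 CPM in saline (adjusted p = 0.996), so that its sign depended on the settings.

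Counts of Mdh1 per count of Mdh2 were 1.9, 2.1, 2.2 and 2.08 in MPTP, against 2.33, 2.93, 2.24 and 2.27 in saline. The groups did not overlap, though the highest MPTP library and the lowest saline library, saline 3, were close. The ratio averaged 2.07 ± 0.125 in MPTP and 2.44 ± 0.323 in saline (n = 4 a group, ± SD), a log2 difference of -0.23, with an exact two-sided permutation p of 0.0286 and an adjusted p of 0.114 over the 8 ratios. Without saline 3 the log2 difference was -0.27 (exact permutation p = 0.0571), and without saline 2, the highest library, it was -0.14.

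The other 6 ratios between genes of the same step overlapped between the groups. Eno2 to Eno1 was 2.11 ± 0.185 in MPTP and 2.12 ± 0.163 in saline (n = 4 a group, ± SD), and Pdk2 to Pdk1 was 3.41 ± 0.587 in MPTP and 3.41 ± 0.584 in saline (n = 4 a group, ± SD). Log2 differences were -0.01 for Eno2 to Eno1 (exact permutation p = 0.857) and 0.00 for Pdk2 to Pdk1 (exact permutation p = 1). They were -0.26 for Slc2a3 to Slc2a1 (exact permutation p = 0.286), -0.26 for Slc16a7 to Slc16a1 (exact permutation p = 0.2), -0.42 for Sucla2 to Suclg2 (exact permutation p = 0.314) and 0.58 for Hk1 to Hk2 (exact permutation p = 0.171). The last pair of ratios is the least certain, since Suclg2 and Hk2 had few counts. Sucla2 to Suclg2 was -0.17 without saline 2, -0.26 without MPTP 2 and -0.57 without saline 3. Hk1 to Hk2 was 0.25 without saline 4. Slc2a3 to Slc2a1 was -0.16 without MPTP 1, -0.15 without saline 1 and -0.42 without saline 3, and Slc16a7 to Slc16a1 was -0.17 without MPTP 3 and -0.16 without saline 1.

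**Figure D4:**
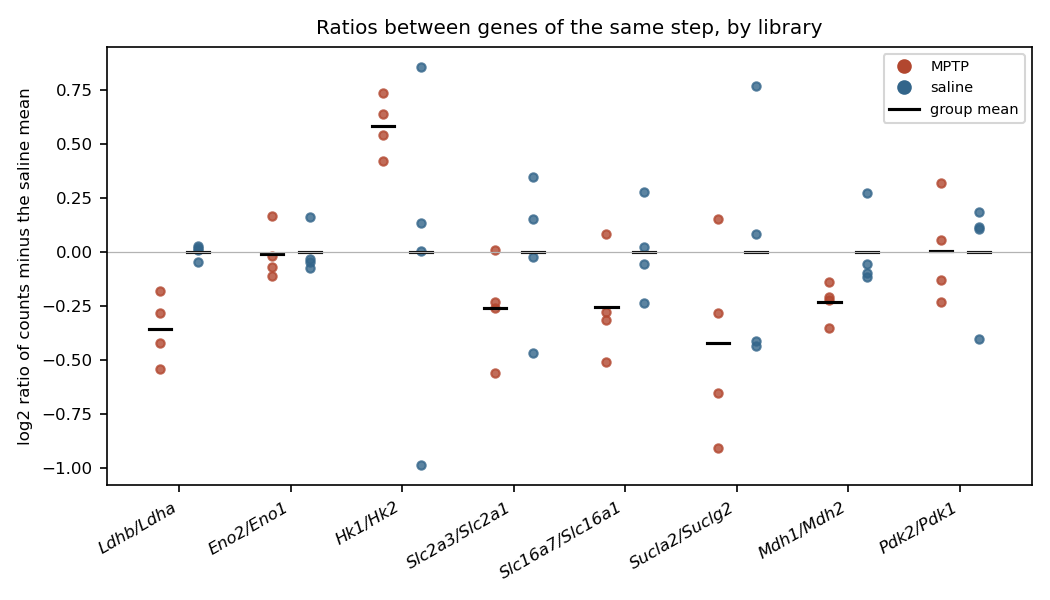
Ratio of counts between 2 genes of the same step in each library, as log2 ratio minus the mean of the saline libraries, for 8 pairs, with MPTP points left of saline points and bars at the group means. For Ldhb to Ldha and for Mdh1 to Mdh2 all 4 MPTP libraries lie below all 4 saline libraries, with mean log2 differences of -0.36 and -0.23, and the other 6 pairs overlap.

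Other genes of the same pathways were taken from a second list of 59, of which 56 could be tested. None was called higher or lower with all 8 libraries, 6 were lower and 2 higher at an unadjusted p under 0.05, where 4.5% of all genes were lower and 4.28% higher, and 35 of 56 (62.5%) were below 0 with a median log2 fold change of -0.06. Tigar, a phosphatase that lowers fructose 2,6-bisphosphate and so restrains phosphofructokinase, had the smallest p and was matched by its Entrez identifier, since the table lists an older symbol. It had 88.3, 98.3, 94.8 and 104 CPM in MPTP and 133, 135, 94.9 and 127 CPM in saline. Only saline 3 fell inside the MPTP range of Tigar. Its log2 fold change was -0.35 (adjusted p = 0.415, SE 0.11), and without saline 3 it was the 1 gene of this list called, at -0.45 (SE 0.08, adjusted p = 0.0144, with 0.0144 to 0.791 over the alternatives), where 0.983% of all genes were called lower.

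Got2, the mitochondrial aspartate aminotransferase of the malate-aspartate shuttle, had 163, 128, 152 and 158 CPM in MPTP and 178, 202, 161 and 183 CPM in saline, a log2 fold change of -0.27 (adjusted p = 0.449, SE 0.10). Mpc2, a subunit of the mitochondrial pyruvate carrier, had 113, 106, 124 and 104 CPM in MPTP and 116, 156, 123 and 141 CPM in saline, a log2 fold change of -0.26 (adjusted p = 0.491, SE 0.10). The groups overlapped narrowly for both genes, through MPTP 1 for Got2 and MPTP 3 for Mpc2. Pck2, the mitochondrial phosphoenolpyruvate carboxykinase, had 15.7, 21.2, 16.5 and 17.3 CPM in MPTP and 12.4, 15, 13.5 and 14.6 CPM in saline. It was above all saline libraries in every MPTP library, as 2.04% of all genes were, with a log2 fold change of 0.35 (adjusted p = 0.483, SE 0.13), and it did not pass the test.

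Between genes, levels were compared per kilobase of RefSeq exon, as means over all 8 libraries. They spanned from 483 CPM per kilobase for Pgam1 to 0.0646 CPM per kilobase for Hk2. After Pgam1 came Aldoa at 441, Mdh1 at 421, Ldhb at 352, Mdh2 at 272, Eno2 at 229 and Tpi1 at 204 CPM per kilobase, and neighbours among these 7 did not differ beyond their spread over the libraries. Below Tpi1 there was a gap to Eno1 at 149 CPM per kilobase. The lower end, from Slc2a1 at 5.22 CPM per kilobase, held Idh2, Slc16a7, Slc16a1, Suclg2 and Hk2, and the ranges did not overlap between Slc16a1 and Suclg2 or between Suclg2 and Hk2. Within steps, and per kilobase, Eno2 exceeded Eno1 1.53-fold in MPTP and 1.54-fold in saline, and Slc2a3 exceeded Slc2a1 4.03-fold in MPTP and 4.88-fold in saline. Eno1 may be understated here, as its reads could have been split with 3 near-identical copies, of which Eno1b is counted on its own. Sucla2 exceeded Suclg2 48.6-fold in MPTP and 66.7-fold in saline, on 200 to 355 counts of Suclg2 in MPTP and 140 to 292 in saline.

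**Figure D5:**
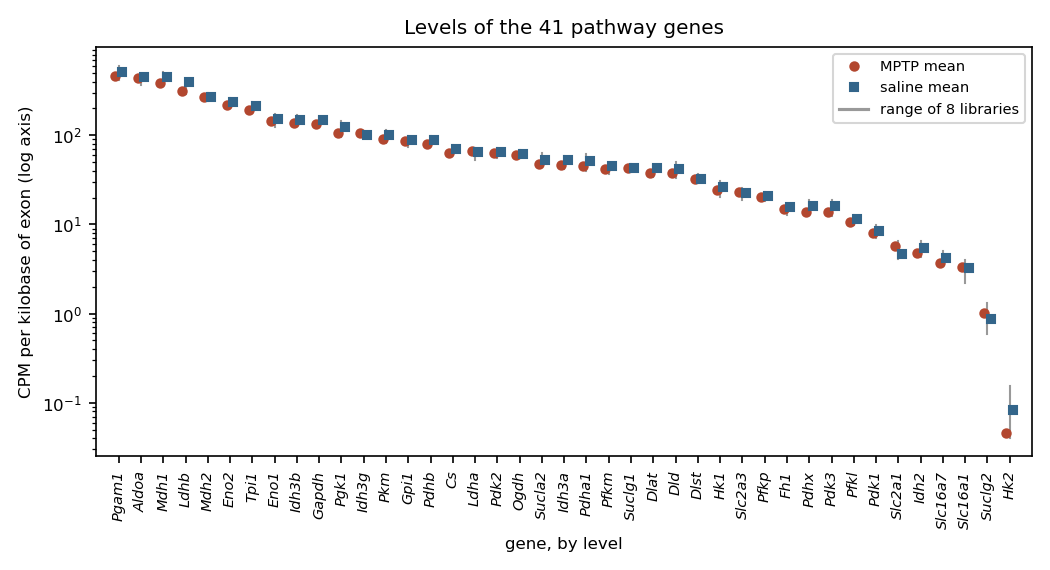
Mean level of each of the 41 genes in CPM per kilobase of exon (log axis), in order of level, with MPTP means as circles left of saline means as squares and grey lines for the range of the 8 libraries. Levels run from Pgam1 at 483 down to Hk2 at 0.0646 CPM per kilobase, and most neighbours overlap.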

How the data were processed

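Ribosome-associated RNA was sequenced in 8 libraries, 4 of MPTP and 4 of saline mice. Little RNA was at hand, and per the labels' protocols it was amplified as cDNA without strand marking and sequenced single-end, a pair of libraries per run. Which libraries shared a run is not given, so run and treatment may not be separable. The submitters' processing notes name TopHat2 2.0.8 and the mm10 build. The authors deposited raw counts per gene. No counting tool, annotation or strand setting is given in the sources used here, and reads of overlapping genes on both strands cannot be told apart. All 8 columns matched a sample by title. Genes without a symbol (90) held 0.0505% to 0.056% of counts. Within a group, no 2 libraries agreed within sampling noise.

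Counts were fitted as deposited for the whole table with edgeR 4.0.16 in R 4.3.3: TMM scaling, filterByExpr with the group (15999 genes kept), robust quasi-likelihood F-test, no covariate, Benjamini-Hochberg adjustment over all genes tested, threshold 0.05. Log2 fold changes give MPTP minus saline. A prior count of 2 went into log2 CPM. Ratios added 0.5 to each count and were tested by exact two-sided permutation over the 70 splits of 8 libraries. Alternatives were DESeq2 1.42.0, limma 3.58.1 voom with sample weights, other scalings and filters, a replicate block, and leaving out each library.

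The members, the other lists and the rule for naming genes were chosen with earlier results of these data known. The rule gives library values for members called with all libraries or without saline 3, the 12 with the smallest p, the most counted of each role, and the 4 other pathway genes with the smallest p. Gene positions, exon overlaps and near-identical copies are from GENCODE vM21, exon lengths and promoters from RefSeq on GRCm38.p6. Amplified reads carry no molecular identifiers, so their counts are not independent molecules.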

Additional observations from a re-analysis of the deposited data

Results flagged for a closer look

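In each group of 4 libraries, a gene or ratio was looked at again when 1 library lay apart from the other 3 by more than Dixon's 95% critical value for 4 values (the gap to the nearest library over the whole range). This held for 4 of 110 groups examined, and chance gives about 1 in 20. Aldoa had 668 CPM in saline 3, against 851 to 877 CPM in saline 1, 2 and 4. Sucla2 had 123 CPM in MPTP 3, against 97.2 to 101 CPM in the other MPTP libraries. In saline 2 the log2 ratio of Mdh1 to Mdh2 was 1.55, against 1.17 to 1.22 in saline 1, 3 and 4, and the log2 ratio of Pdk2 to Pdk1 was 1.35, against 1.86 to 1.94 in saline 1, 3 and 4. Without saline 2 the groups of Mdh1 to Mdh2 did not overlap, and the log2 difference between MPTP and saline was -0.14, against -0.23 with all libraries.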

How the results depend on the processing

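No setting called a member higher, and none but leaving out saline 3 called one lower: over the libraries left out in turn the number of members lower was 0 to 2, and of other pathway genes called 0 to 1. The median log2 fold change of members stayed between -0.16 and -0.09, and 30 to 37 members were below 0. Over all genes, leaving out libraries gave 8 to 138 higher and 0 to 159 lower calls, DESeq2 gave 25 and 31, and a mean of at least 5 CPM gave 7 higher. Of 330 repeats for single named genes, 313 kept direction and side of the threshold, 3 passed it (Ldhb, Mdh1 and Tigar without saline 3) and 14 changed sign, in 4 genes with small differences. With libraries left out, the log2 fold change ran from -0.02 to 0.13 for Slc2a3, -0.11 to 0.01 for Aldoa, -0.10 to 0.02 for Pdk2 and -0.05 to 0.05 for Mdh2, which was 0.01 with upper quartile scaling, 0.0001 with no filter and 0.0042 with a mean of at least 5 CPM. The log2 ratio difference ran from -0.07 to 0.04 for Eno2 to Eno1 and -0.13 to 0.08 for Pdk2 to Pdk1, and the marker difference from -0.11 to 0.16 for endothelial and -0.0024 to 0.26 for GABAergic and glutamatergic neurons. The causes were not tested.

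Equal replicate numbers did not pair the libraries: correlations of deviations were -0.0241, -0.116, -0.0282 and 0.0388, and none was highest for its own number. The replicate block called 10 genes higher and 4 lower and no member, with Mdh2 at 0.0026. With 4 libraries a group, 1 of them apart, small shifts of a pathway are at the limit of this design.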

Other observations

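The following genes belong to the second pathway list and were singled out after their values were seen. Gapdhs, known as the sperm isoform of glyceraldehyde-3-phosphate dehydrogenase, had 573 to 808 CPM in MPTP and 623 to 811 CPM in saline, a log2 fold change of -0.04 (edgeR adjusted p = 0.951). Per kilobase of exon it held 430 CPM in MPTP and 441 CPM in saline, against 133 CPM in MPTP and 147 CPM in saline for Gapdh, the isoform of other tissues. An antisense transcript, Tmem147os, shares 9.78% of the exon bases of Gapdhs, and no near-identical copy of Gapdhs was found. Gapdh has 81 near-identical copies, 3 of them counted on their own, and their part in its level was not tested. The comparison therefore does not settle which of these isoforms had more RNA. Other isoforms of the testis had few counts: Pgk2 had 0 to 5 counts in each library and Pdha2 had 0 in all 8. Ldhc had 0 to 4 counts in the MPTP libraries, and 0, 0, 106 and 6 in saline 1 to 4, so that saline 3 stood apart there too.

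Aldoc, the aldolase of astrocytes, had 246 to 295 CPM in MPTP and 223 to 328 CPM in saline, with saline 3 the highest library, as it was for the summed astrocyte markers. Me3, the mitochondrial NADP-dependent malic enzyme, had 45.7 to 48.3 CPM in MPTP and 50.1 to 57.6 CPM in saline. The groups of Me3 did not overlap, as all MPTP libraries lay below all saline libraries for 2.14% of all genes, with a log2 fold change of -0.18 (edgeR adjusted p = 0.568).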
